A study of Mus musculus with 20 samples.

Results

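The 9 genes described here, *Hmgcs1*, *Mvd*, *Idi1*, *Fdps*, *Fdft1*, *Sqle*, *Cyp51*, *Nsdhl* and *Sc5d*, encode enzymes of the mevalonate pathway and of sterol synthesis. They were chosen by name, as rows of a table of 46078 mouse genes counted in liver, and all 9 had enough counts to be tested, as had 14759 genes in all. The mevalonate pathway joins acetyl-CoA units into mevalonate and then into the isoprenoid farnesyl diphosphate, which is either drawn off for prenylated proteins, dolichol and ubiquinone or condensed to squalene. Squalene is oxidised, closed into lanosterol and trimmed to cholesterol, and the liver is a main site of this synthesis. Transcription of most of these enzymes is driven by SREBP2, a factor held in the endoplasmic reticulum when membrane sterol is plentiful and released when sterol falls.

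The study asked how mice respond when cysteine is removed from the diet of animals that cannot make it. *Cse*, listed in the counts as *Cth*, encodes cystathionine γ-lyase, the last enzyme of cysteine synthesis, and *Cse*-/- mice (129/C57BL/6 background, a constitutive knockout) depend on dietary cysteine. Livers of 20 male mice were analysed. Of the *Cse*+/- animals, 2 ate the control diet, 4 a diet without cysteine (no-Cys) and 3 a diet without tryptophan (no-Trp), and of the *Cse*-/- animals 4 were given no-Cys food, 3 no-Trp food and 4 no-Trp food plus BSO. The mice were at least 9 weeks old, all had received a calorie-restricted control diet for 3 days, and tissue was taken after 2 days of the test diet. Feeding stayed calorie-restricted on the test diets in all groups. Each diet was a defined amino acid diet, of which the depleted versions hold more of all other amino acids. BSO (L-buthionine sulfoximine) inhibits the first enzyme of glutathione synthesis. The sample labels call the control genotype WT and the study's list of mice calls it heterozygous, and it is written *Cse*+/- here and Het in the plots, with KO for *Cse*-/-. Mice carry their column names in the table of counts, av01 to av22.

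Between 11785740 and 57986121 reads per library were counted on genes. Values are given as CPM, counts relative to the library total after scaling by edgeR's TMM factors, and a gene is called changed when its adjusted p in edgeR's quasi-likelihood test is under 0.05. *Cth* was at 88.4 to 332 CPM in the *Cse*+/- livers and at 6.37 to 14.4 CPM in the *Cse*-/- livers, so that the libraries matched their genotype labels. The summed level of 8 hepatocyte markers was 89096 to 116264 CPM in *Cse*+/- and 43801 to 74115 CPM in *Cse*-/- livers on the no-Cys diet. Of the 8, 4 were called lower and 1 higher in the knockouts. On the same diet 6 cholangiocyte markers, of which 2 were called lower, summed to 46.1 to 57.9 CPM against 16.4 to 28.8 CPM, and 5 red cell markers, all called lower, to 201 to 406 CPM against 69.1 to 114 CPM. The stellate cell markers *Lrat* and *Colec11* were also called lower there, and the endothelial marker *Lyve1* higher. Macrophage markers were at 204 to 326 CPM, endothelial at 149 to 205 CPM and stellate cell markers at 178 to 289 CPM over all livers, lymphocyte markers at 4.72 CPM or less and pancreas markers at 1.69 CPM or less. Adipocyte markers were below 1 CPM except in single no-Trp livers, with up to 29.99 CPM, and *Lep* and *Amy2a5*, of the adipocyte and pancreas lists, had no count in any liver. Markers were called in further comparisons, given beside them, and their part in the enzyme values was not tested. In whole liver, fewer cells of a type and less RNA per cell cannot be told apart.

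The 9 enzymes are taken in the order of the pathway. *Hmgcs1* (ENSMUSG00000093930, plus strand of GRCm38, chr13:119690379-119708260) encodes cytosolic HMG-CoA synthase, which makes the substrate of the rate-limiting reductase. In *Cse*+/- livers it was at 76.1 and 55.8 CPM on the control diet, at 147, 238, 136 and 193 CPM on the no-Cys diet and at 37.2, 65.4 and 77.4 CPM on the no-Trp diet. In *Cse*-/- livers it was at 43.4, 77.8, 55.0 and 74.0 CPM on the no-Cys diet, at 98.1, 92.9 and 121 CPM on the no-Trp diet and at 45.4, 84.1, 49.4 and 68.9 CPM on the no-Trp diet with BSO. All *Cse*+/- no-Cys livers were above every other liver, the *Cse*-/- no-Trp livers came next, and the remaining groups overlapped. On the no-Cys diet *Hmgcs1* was 2.86-fold lower in *Cse*-/- than in *Cse*+/- mice (log2 fold change of −1.51 ± 0.24 SE, the standard error, edgeR adjusted p = 0.00023).

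*Mvd* (ENSMUSG00000006517, minus strand, chr8:122433601-122443422) encodes mevalonate diphosphate decarboxylase, which makes isopentenyl diphosphate. It was at 6.48 and 7.24 CPM in control, 12.5, 17.3, 11.7 and 17.1 CPM in no-Cys and 5.90, 5.60 and 8.59 CPM in no-Trp *Cse*+/- livers. In *Cse*-/- livers it reached 4.43, 7.26, 5.65 and 7.45 CPM on the no-Cys diet, 9.67, 6.36 and 18.8 CPM on the no-Trp diet and 8.78, 11.5, 7.65 and 9.29 CPM with BSO. The highest value of all belonged to mouse av16 on the no-Trp diet, whereas the *Cse*-/- no-Cys livers lay below all *Cse*+/- no-Cys livers. That genotype difference was 2.38-fold (log2 fold change of −1.25 ± 0.26 SE, edgeR adjusted p = 0.0020).

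*Idi1* (ENSMUSG00000058258, plus strand, chr13:8885501-8892451) encodes isopentenyl-diphosphate δ-isomerase, which converts isopentenyl into dimethylallyl diphosphate. It was at 9.99 and 5.57 CPM in control, 16.2, 24.7, 18.5 and 16.1 CPM in no-Cys and 3.84, 3.67 and 4.86 CPM in no-Trp *Cse*+/- livers. Among *Cse*-/- livers it was at 2.01, 6.60, 2.85 and 7.67 CPM on the no-Cys diet, at 8.03, 7.73 and 13.7 CPM on the no-Trp diet and at 1.48, 6.10, 1.19 and 3.65 CPM with BSO. The *Cse*+/- no-Cys livers stood above all others, and the lowest livers, av11 and av09, were on BSO. From the lowest to the highest liver *Idi1* spanned 20.7-fold, the widest range of the 9 enzymes as counted, and its counts per library ran from 17 to 350. Its level in *Cse*-/- no-Cys livers was 4.01-fold lower than in *Cse*+/- no-Cys livers (log2 fold change of −2.0 ± 0.41 SE, edgeR adjusted p = 0.0016).

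*Fdps* (ENSMUSG00000059743, minus strand, chr3:89093588-89101959) encodes farnesyl diphosphate synthase, at the branch point between sterols and other isoprenoids. It was counted at 7.79 and 4.39 CPM in control, 8.65, 6.91, 7.23 and 12.7 CPM in no-Cys and 2.35, 3.42 and 5.04 CPM in no-Trp *Cse*+/- livers. The *Cse*-/- livers held 1.36, 2.71, 1.99 and 3.62 CPM on the no-Cys diet, 6.04, 3.30 and 6.92 CPM on the no-Trp diet and 1.27, 5.56, 2.25 and 2.75 CPM with BSO. All *Cse*-/- no-Cys livers were below all *Cse*+/- no-Cys livers, by 3.72-fold in the fit (log2 fold change of −1.89 ± 0.40 SE, edgeR adjusted p = 0.0019).

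Much of the sequence of *Fdps* is not unique, and reads from such stretches can be left out or split when they are counted on genes. Of the stretches of 61 bases, the read length, in its coding transcripts, 56.1% also occur in *Gm43738*, a read-through gene that includes it, and 24.8% in the processed pseudogene *Gm3571*. *Gm3571* was itself counted at 3.02 to 22.9 CPM, with a mean of 10.6 CPM. On the no-Cys diet its mean was 20.2 CPM (SD 2.86, n = 4) with and 5.55 CPM (SD 2.02, n = 4) without a working *Cse* allele, and whether these reads came from *Fdps* mRNA was not tested. With the counts of its pseudogenes and of *Gm43738* added, an alternative chosen after the values were seen, the genotype log2 fold change of *Fdps* on the no-Cys diet was −1.79 (edgeR adjusted p = 0.00081). The same addition gave *Idi1*, which shares 19.5% of its coding stretches with the pseudogene *Gm13502*, a log2 fold change of −1.51 (edgeR adjusted p = 0.0010). Its levels then ran from 3.30 to 29.7 CPM, and its range was no longer the widest of the 9. *Fdft1* shares 19.6% with the opposite-strand gene *Ctsb* and *Hmgcs1* 12% with the antisense gene *Gm48342*, the first exon of *Idi1* overlaps the antisense gene *Gm48574*, and the library kit does not mark strand.

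*Fdft1* (ENSMUSG00000021273, minus strand, chr14:63145150-63179578) encodes squalene synthase, the first enzyme committed to sterols. Its levels were 79.5 and 73.9 CPM in control, 123, 115, 103 and 127 CPM in no-Cys and 59.6, 76.4 and 94.5 CPM in no-Trp *Cse*+/- livers. On the *Cse*-/- side they were 44.9, 67.2, 57.5 and 68.8 CPM on the no-Cys diet, 86.1, 77.7 and 110 CPM on the no-Trp diet and 73.2, 67.7, 63.0 and 65.1 CPM with BSO. *Fdft1* had the narrowest range of the 9 enzymes, 2.83-fold from lowest to highest liver, and the smallest genotype difference on the no-Cys diet. It was 1.96-fold lower in *Cse*-/- mice, with no overlap (log2 fold change of −0.97 ± 0.14 SE, edgeR adjusted p = 0.00010).

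*Sqle* (ENSMUSG00000022351, plus strand, chr15:59315077-59331192) encodes squalene epoxidase, an oxygen-requiring and rate-controlling step. It was at 35.8 and 20.3 CPM in control, 43.7, 60.3, 43.3 and 49.0 CPM in no-Cys and 16.6, 12.4 and 19.2 CPM in no-Trp *Cse*+/- livers. Knockout livers had 5.61, 25.4, 13.2 and 17.5 CPM on the no-Cys diet, 22.4, 20.3 and 41.0 CPM on the no-Trp diet and 4.24, 19.2, 4.91 and 9.26 CPM with BSO. Every *Cse*+/- no-Cys liver was above every other liver, and the lowest livers, av09, av11 and av05, were knockouts on BSO or on the no-Cys diet. The genotype difference on the no-Cys diet was 3.21-fold (log2 fold change of −1.68 ± 0.41 SE, edgeR adjusted p = 0.0058).

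*Cyp51* (ENSMUSG00000001467, minus strand, chr5:4081145-4104746) encodes lanosterol 14α-demethylase, a cytochrome P450 that removes the first methyl group of lanosterol. It was at 108 and 77.9 CPM in control, 134, 146, 108 and 140 CPM in no-Cys and 61.2, 61.6 and 78.1 CPM in no-Trp *Cse*+/- livers. In the knockouts its level was 25.7, 53.3, 38.2 and 57.0 CPM on the no-Cys diet, 113, 67.6 and 131 CPM on the no-Trp diet and 29.0, 86.5, 31.1 and 55.2 CPM with BSO. The *Cse*-/- no-Cys livers lay below all *Cse*+/- livers on any diet, whereas the *Cse*-/- no-Trp livers overlapped the *Cse*+/- no-Cys livers. On the no-Cys diet *Cyp51* was 3.03-fold lower in the knockouts (log2 fold change of −1.60 ± 0.30 SE, edgeR adjusted p = 0.00079).

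*Nsdhl* (ENSMUSG00000031349, plus strand, chrX:72918557-72958514) encodes a sterol dehydrogenase that removes the C4 carboxyl group after demethylation. It was at 34.3 and 28.3 CPM in control, 57.5, 53.6, 48.1 and 54.2 CPM in no-Cys and 12.01, 13.8 and 16.7 CPM in no-Trp *Cse*+/- livers. Its knockout values were 5.67, 11.3, 8.25 and 15.3 CPM on the no-Cys diet, 24.3, 20.2 and 35.8 CPM on the no-Trp diet and 9.26, 22.9, 9.26 and 16.3 CPM with BSO. *Nsdhl* separated the *Cse*+/- diets, with all no-Cys livers above the control pair and the control pair above all no-Trp livers. It had the largest genotype difference of the 9 on the no-Cys diet, 5.30-fold (log2 fold change of −2.41 ± 0.29 SE, edgeR adjusted p = 1.1e-05).

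*Sc5d* (ENSMUSG00000032018, minus strand, chr9:42251595-42264256) encodes sterol C5-desaturase, which acts shortly before cholesterol is complete. It was at 206 and 147 CPM in control, 195, 298, 239 and 274 CPM in no-Cys and 164, 161 and 181 CPM in no-Trp *Cse*+/- livers. In *Cse*-/- livers the values were 99.2, 149, 114 and 98.1 CPM on the no-Cys diet, 268, 161 and 210 CPM on the no-Trp diet and 135, 158, 144 and 185 CPM with BSO. The *Cse*+/- no-Cys group overlapped the control pair and the *Cse*-/- no-Trp group, while the *Cse*-/- no-Cys livers lay below all *Cse*+/- no-Cys livers. On that diet *Sc5d* was 2.19-fold lower in the knockouts (log2 fold change of −1.13 ± 0.17 SE, edgeR adjusted p = 0.00013). Per kilobase of exon *Sc5d* was the most abundant of the 9 in every group, at 51.6 CPM per kilobase in *Cse*+/- no-Cys and 23.6 in *Cse*-/- no-Cys livers. *Fdps* as counted was the least, at 2.11 and 0.575. With pseudogene counts added, the mean of *Fdps* in these groups was 36.4 CPM (SD 6.31, n = 4) and 10.6 CPM (SD 3.88, n = 4). It then lay above *Idi1*, at 22.9 CPM (SD 4.63, n = 4) and 8.11 CPM (SD 2.87, n = 4), and was no longer the least per kilobase there.

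**Figure D1:**
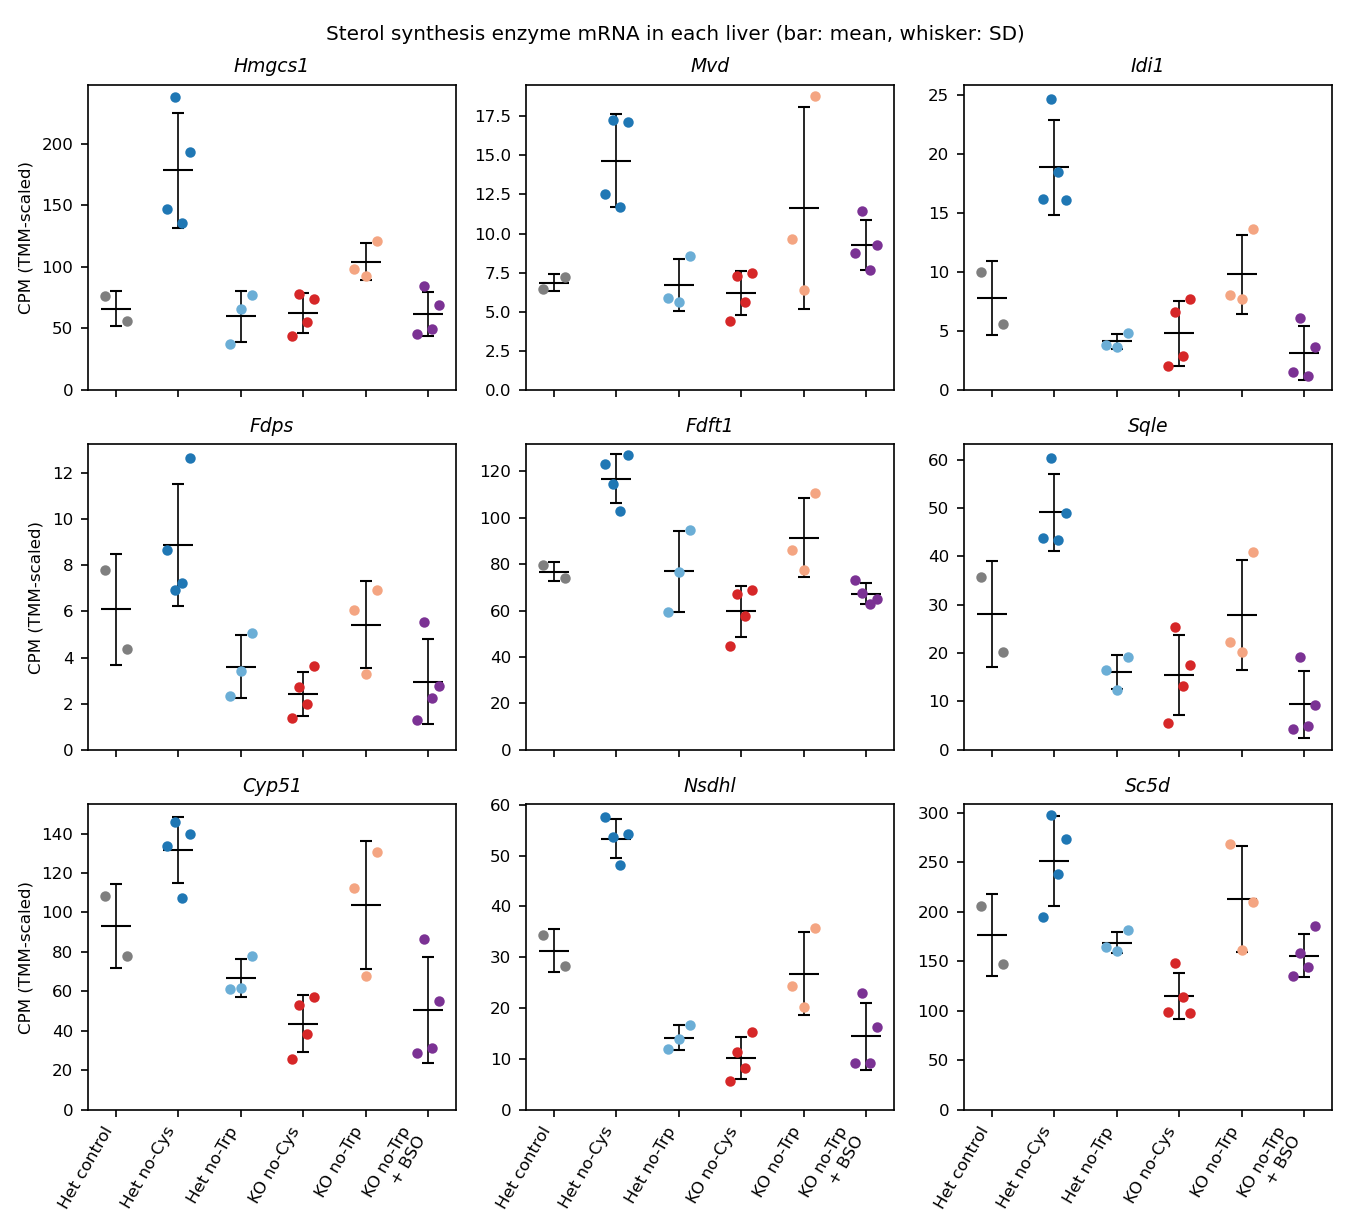
Level of each enzyme's mRNA in CPM (vertical axes, from 0, scaled per gene) in the 6 groups, with a point for each mouse, a horizontal bar at the group mean and whiskers of 1 SD (n = 2 to 4). The *Cse*+/- (Het) no-Cys group has the highest mean in all 9 panels, while the *Cse*-/- (KO) no-Cys group has the lowest in 6.

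The 6 groups shared their first place, and not their lower places, from enzyme to enzyme. The *Cse*+/- no-Cys group had the highest mean for 9 of 9 enzymes, and the second place went to the *Cse*-/- no-Trp group for 6 and to the control group for 3. The *Cse*-/- no-Cys group was lowest for 6, the BSO group for 2 (*Idi1* and *Sqle*) and the *Cse*+/- no-Trp group for 1 (*Hmgcs1*). Most neighbours in this order did not differ beyond their spread, since 37 of 45 neighbouring pairs of groups overlapped.

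**Figure D2:**
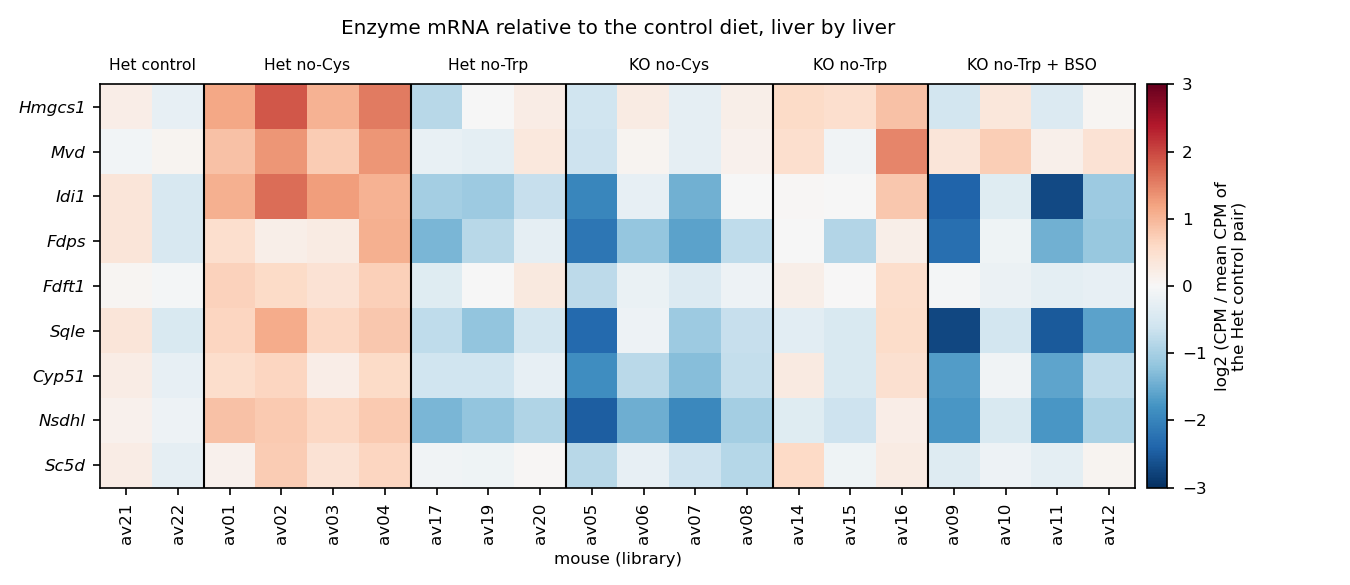
Level of each enzyme in each liver as log2 of its CPM over the mean CPM of the *Cse*+/- (Het) control pair, with red above and blue below that mean, enzymes in pathway order and livers by group. The no-Cys Het columns are red from *Hmgcs1* to *Sc5d*, and in the KO no-Cys group av05 has the lowest value for 8 of 9 enzymes.

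The promoters of the enzymes are shown because their mRNA levels moved together. A promoter of RefSeq (GRCm38.p6) was matched for 6 of the 9 genes (*Hmgcs1*, *Mvd*, *Idi1*, *Cyp51*, *Nsdhl* and *Sc5d*), and the 250 bases before RefSeq's start were searched on both strands for TCACNCCAC, a form of the sterol regulatory element bound by SREBP factors, for CCAAT, bound by NF-Y, and for GGGCGG, bound by SP1. These letters were chosen after the sequences were seen, and no matches overlap. The sequences below, with every match in capitals (on the minus strand ATTGG and CCGCCC), are those of the first of the 9 enzymes, of *Nsdhl*, the one with the largest genotype difference on the no-Cys diet, and of *Sc5d*, the one with the smallest among the matched genes. They lie at chr13:119690101-119690350 (plus strand), chrX:72918271-72918520 (plus) and chr9:42264301-42264550 (minus).
Hmgcs1: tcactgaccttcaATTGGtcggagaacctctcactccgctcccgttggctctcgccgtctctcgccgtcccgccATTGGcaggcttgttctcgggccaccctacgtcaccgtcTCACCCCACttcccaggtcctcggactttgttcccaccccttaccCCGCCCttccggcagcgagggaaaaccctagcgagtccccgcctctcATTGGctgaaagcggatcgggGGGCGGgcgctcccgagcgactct
Nsdhl: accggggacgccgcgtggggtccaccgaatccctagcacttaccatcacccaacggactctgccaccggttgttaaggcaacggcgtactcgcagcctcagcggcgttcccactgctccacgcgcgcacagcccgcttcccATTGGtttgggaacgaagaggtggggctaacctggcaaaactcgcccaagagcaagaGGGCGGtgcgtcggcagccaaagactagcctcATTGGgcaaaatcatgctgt
Sc5d: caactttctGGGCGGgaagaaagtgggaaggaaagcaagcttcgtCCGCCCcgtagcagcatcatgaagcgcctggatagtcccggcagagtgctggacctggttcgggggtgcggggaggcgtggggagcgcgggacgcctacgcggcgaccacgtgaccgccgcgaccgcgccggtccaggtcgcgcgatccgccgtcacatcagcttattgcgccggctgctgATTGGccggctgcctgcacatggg
TCACNCCAC was found in the promoter of *Hmgcs1* alone, starting 137 bases before the start, and in 1.05% of 32851 promoters. A CCAAT match was present in 6 of 6 enzyme promoters, against 33.8% of all promoters, and a GGGCGG match in 6 of 6, against 32.7%. *Hmgcs1* held 3 CCAAT matches, and *Mvd*, *Idi1* and *Nsdhl* 2 each. RefSeq's starts can differ from the gene coordinates above, which are GENCODE's: the windows of *Idi1* and *Cyp51* reach into the gene as GENCODE places it, and all matches of *Idi1* and the CCAAT match of *Cyp51* lie in that stretch. A match is a run of letters and not evidence of binding, and a missing match says only that these letters are not in this window.

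The first comparison asks whether the loss of *Cse* changed the enzymes when cysteine was absent. On the no-Cys diet 9 of 9 enzymes were lower in *Cse*-/- than in *Cse*+/- livers, where 12.2% of all genes tested were called lower, and 0 were higher. The groups did not overlap for any of the 9, against 11.2% of all genes lying wholly lower. The median log2 fold change of the enzymes was −1.60, and that of all genes was −0.01. The decreases were largest for *Nsdhl*, *Idi1* and *Fdps* and smallest for *Fdft1* and *Sc5d*, except that with pseudogene counts added *Idi1*, at −1.51, came after *Fdps* (−1.79), *Sqle* (−1.68) and *Cyp51* (−1.60). Leaving out each of the 8 mice in turn gave 9 of 9 calls every time.

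On the no-Trp diet the same genotype comparison went the other way, although no enzyme passed the test. The log2 fold changes of *Cse*-/- against *Cse*+/- livers were positive for 9 of 9, from 0.25 (*Fdft1*) to 1.26 (*Idi1*). By edgeR 0 were called, where 1.40% of all genes were called higher, while 4 had an unadjusted p under 0.05 and DESeq2 called 0. *Hmgcs1*, *Idi1*, *Sqle* and *Nsdhl* were higher in every *Cse*-/- than in every *Cse*+/- liver, and 10.1% of all genes were. The interval of *Nsdhl* was 0.27 to 1.57 (95%, log2 fold change), with an edgeR adjusted p of 0.12.

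The difference between these genotype effects was tested as an interaction. It was negative and called for 9 of 9 enzymes, against 2.69% of all genes called lower. *Nsdhl* had the largest value, a log2 difference of −3.32 (± 0.42 SE, edgeR adjusted p = 0.00051), followed by *Idi1* at −3.27 (± 0.62 SE, edgeR adjusted p = 0.0056), which was at −2.34 (edgeR adjusted p = 0.0053) with pseudogene counts added. *Fdft1* had the smallest, −1.22 (± 0.22 SE, edgeR adjusted p = 0.0038). The calls of *Fdps* and *Sqle* were the least firm: both were lost without av16 or without av17, and *Sqle* also without av02, av07 or av19, with values between −2.52 and −2.10. Of the markers, the hepatocyte genes *Alb* and *Ttr* and the red cell gene *Alas2* were called lower in the interaction and the endothelial gene *Lyve1* higher.

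Among *Cse*+/- mice, which can make cysteine, the enzymes were higher on the no-Cys than on the no-Trp diet. Of the 9, 6 were called higher, against 4.63% of all genes: *Idi1* (log2 fold change 2.20), *Nsdhl* (1.91), *Sqle* (1.62), *Hmgcs1* (1.57), *Mvd* (1.14) and *Fdft1* (0.60). *Fdps* (1.28, edgeR adjusted p = 0.055), *Cyp51* (0.98, 0.066) and *Sc5d* (0.57, 0.059) missed the threshold, although no-Cys and no-Trp livers did not overlap for any of the 9, as for 10.5% of all genes. Without av17 or without av19 the count fell to 3, *Mvd*, *Fdft1* and *Sqle* losing their calls. With the pseudogene counts added *Fdps* was called, at 1.47 (edgeR adjusted p = 0.017). The endothelial markers *Lyve1* and *Pecam1* were called lower on the no-Cys diet.

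Against the control diet, the no-Cys diet gave *Cse*+/- livers higher values of all 9 enzymes, of which 1 was called, against 0.989% of all genes. *Hmgcs1* rose 2.71-fold (log2 fold change of 1.44 ± 0.31 SE, edgeR adjusted p = 0.019). Its call was lost without av02 (1.27, edgeR adjusted p = 0.052), without av21 (1.68, 0.061) and without av22 (1.23, 0.37), and the control group held only 2 mice. *Mvd* (1.10, edgeR adjusted p = 0.085) and *Fdft1* (0.61, 0.080) were next, and both were called by DESeq2. For *Hmgcs1*, *Mvd*, *Idi1*, *Fdft1*, *Sqle* and *Nsdhl* the no-Cys livers lay wholly above the control pair, as for 13.2% of all genes. Of the markers, the cholangiocyte gene *Krt7* was called lower.

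The no-Trp diet, set against the control diet in *Cse*+/- mice, gave no called enzyme, where 0.0407% of all genes were called lower and 0.00678% higher by edgeR. An unadjusted p under 0.05 was reached by 1, *Nsdhl*, at a log2 fold change of −1.14 (95% interval −1.85 to −0.42, edgeR adjusted p = 0.28), and DESeq2 called 0. *Idi1*, *Sqle* and *Nsdhl* lay wholly below the control pair, as did 14.6% of all genes. *Fdft1* was at 0.00, with an interval of −0.38 to 0.39, and *Mvd* at −0.04, with an interval of −0.75 to 0.67.

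Within the knockouts, the lack of cysteine went with lower enzyme levels than the lack of tryptophan. Of the 9, 5 were called lower, against 5.35% of all genes: *Nsdhl* (log2 fold change −1.42, edgeR adjusted p = 0.0058), *Cyp51* (−1.26, 0.016), *Mvd* (−0.93, 0.038), *Sc5d* (−0.89, 0.0048) and *Fdft1* (−0.62, 0.015). *Fdps* (−1.20, edgeR adjusted p = 0.072), *Idi1* (−1.07, 0.12), *Sqle* (−0.87, 0.21) and *Hmgcs1* (−0.74, 0.072) had values of the same sign and were not called. The groups did not overlap for 6 enzymes, as for 9.83% of all genes lying lower. Without av05 or without av16 the count fell to 2, and without av14 to 3. With single livers left out, the log2 fold change of *Mvd* ran from −1.21 to −0.40. In the same comparison 3 of 8 hepatocyte, 1 of 6 cholangiocyte, 1 of 6 stellate cell and 3 of 5 red cell markers were called lower.

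**Figure D3:**
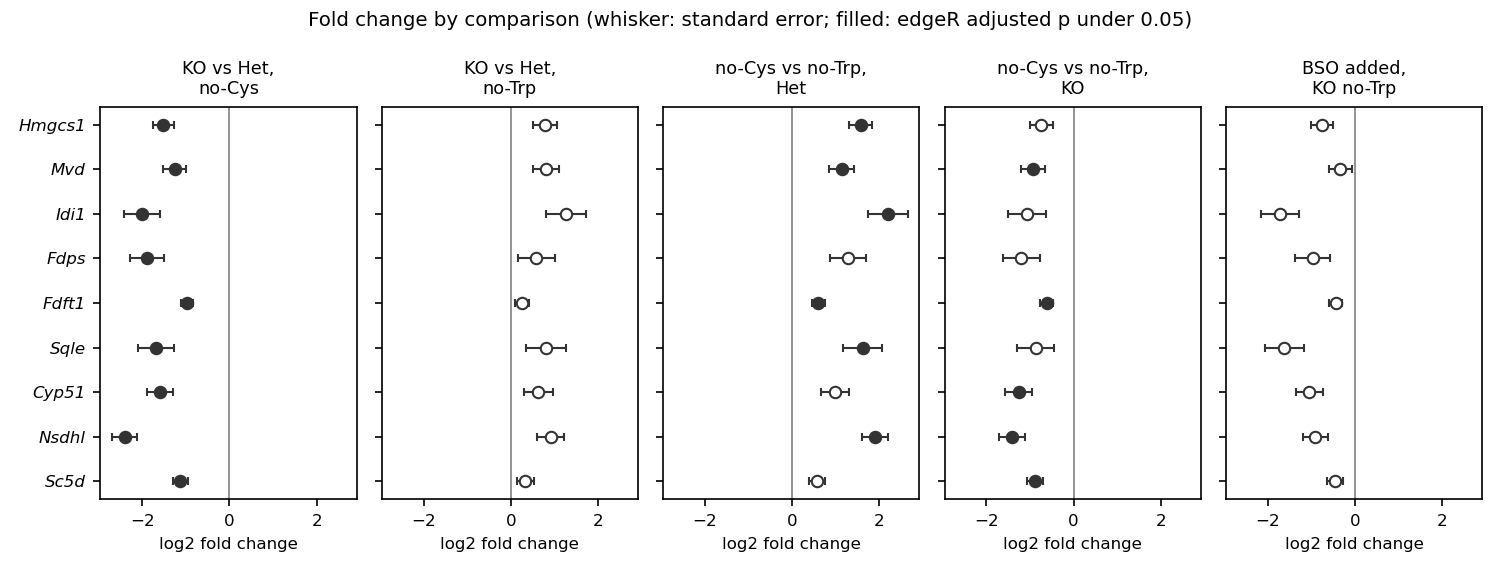
Log2 fold change (horizontal axis) of the 9 enzymes in 5 comparisons, with whiskers of 1 standard error and filled points where the edgeR adjusted p was under 0.05. All 9 points are filled to the left for KO against Het on the no-Cys diet, all 9 lie open to the right on the no-Trp diet, and all 9 lie open to the left for BSO.

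BSO was added to the no-Trp diet to block glutathione synthesis while cysteine remained in the food. All 9 enzymes had lower values with BSO, from −0.34 (*Mvd*) to −1.72 (*Idi1*, as counted) on the log2 scale. With pseudogene counts added, *Idi1* was at a mean of 6.16 CPM (SD 3.58, n = 4) with and 13.1 CPM (SD 2.61, n = 3) without BSO. That was a smaller fold than as counted, and no longer the largest of the 9. By edgeR 0 were called, where 0.305% of all genes were called lower. In edgeR's test 8 had an unadjusted p under 0.05, and DESeq2 called 1, *Idi1*. The shares of all genes for these counts were not taken. *Idi1* had a 95% interval of −2.64 to −0.81 and an edgeR adjusted p of 0.069, and *Sqle*, at −1.62, one of −2.53 to −0.70 and 0.088. *Hmgcs1*, *Idi1*, *Fdft1* and *Sqle* were lower in every BSO liver than in every no-Trp liver, as were 6.13% of all genes. Mouse av10 had the highest value of its BSO group for 7 of 9 enzymes, and is named here because of these values. Dixon's test for a single distant liver marked none in that group. Leaving out each liver in turn gave 0 to 4 calls. The 4 came without av10: *Idi1* (−2.20, edgeR adjusted p = 0.015), *Sqle* (−2.19, 0.0096), *Cyp51* (−1.44, 0.016) and *Nsdhl* (−1.21, 0.035). The share of all genes called without av10 was not taken.

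The *Cse*-/- livers without cysteine and those with BSO were not told apart by any of the 9 enzymes. Of the 9, 6 were lower and 3 higher on the no-Cys diet, and edgeR and DESeq2 called 0, where edgeR called 1.42% of all genes lower and 1.33% higher. An unadjusted p under 0.05 was found for 2, *Mvd* (log2 fold change −0.59, 95% interval −1.14 to −0.04) and *Sc5d* (−0.44, −0.79 to −0.08). *Hmgcs1* was at 0.02 (−0.49 to 0.52), whereas the intervals of *Idi1* (−0.26 to 1.57) and *Sqle* (−0.14 to 1.63) reached over 1 on the log2 scale. *Mvd* was the 1 enzyme with no overlap, as for 6.24% of all genes lying lower. Among the other pathway genes *Ebp*, a sterol isomerase, was called lower on the no-Cys diet (−0.43, edgeR adjusted p = 0.024) and *Insig2*, which holds SREBP in the endoplasmic reticulum, higher (0.91, 0.034). Of the markers 3 of 8 hepatocyte and 2 of 6 cholangiocyte genes were called lower.

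Because the *Cse*+/- no-Cys group was the highest, a further comparison was chosen after the values were seen, of the *Cse*-/- no-Cys livers with the *Cse*+/- control livers, which differ in genotype and diet. Of the 9, 4 were called lower, against 9.22% of all genes: *Nsdhl* (log2 fold change −1.64, edgeR adjusted p = 0.0019), *Fdps* (−1.36, 0.049), *Cyp51* (−1.10, 0.034) and *Sc5d* (−0.62, 0.039). *Hmgcs1* (−0.08, 95% interval −0.69 to 0.54) and *Mvd* (−0.15, −0.84 to 0.53) were close to the control level. *Nsdhl* alone was called without av05, av07 or av21, and 2 enzymes were without av22. Here 4 of 8 hepatocyte, 4 of 6 cholangiocyte and 5 of 5 red cell markers were called lower, as were 1 stellate cell and 1 endothelial marker, and 1 endothelial marker was called higher. These comparisons share groups, the *Cse*+/- no-Cys livers entering 4 of them, so that their results are not independent of each other.

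The enzymes also varied together among mice. Across the 20 livers the log2 CPM of each correlated with the mean of the other 8, with a Pearson r from 0.764 (*Mvd*) to 0.964 (*Cyp51*), and after the group means were removed with an r from 0.491 (*Sc5d*) to 0.965 (*Cyp51*). These values describe livers that share group and library, and carry no test. Mouse av05 was lowest of the *Cse*-/- no-Cys group for 8 of 9 enzymes, av15 lowest of its no-Trp group for 9, and av20 highest of the *Cse*+/- no-Trp group for 9. Of the control pair av21 was the higher for 8. Among the genes outside the enzyme lists, those most like the mean of the 9 over 20 livers included the *Fdps* pseudogenes *Gm3571* (r = 0.958) and *Gm5873* (r = 0.931), then *Rdh11*, a retinol dehydrogenase (r = 0.920), *Sucnr1*, the succinate receptor (r = 0.889), and *Erg28* (r = 0.873), a scaffold of sterol C4 demethylation. *Fasn* (r = 0.872), *Acly* (r = 0.860) and *Fads1* (r = 0.855), of fatty acid synthesis and desaturation, and *Adh4* (r = 0.856), an alcohol dehydrogenase, were also among the 10 highest outside these lists.

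The other enzymes of the pathway had values of the same direction on the no-Cys diet. Of 12, 9 were lower in *Cse*-/- than in *Cse*+/- livers (12.2% of all genes) and 0 higher, with a median log2 fold change of −0.86. *Msmo1*, the C4-methyl sterol oxidase, had the lowest value (−1.75, edgeR adjusted p = 0.00049). *Lss*, lanosterol synthase (−0.26, 0.097), and *Lbr*, a sterol C14-reductase of the nuclear envelope (−0.24, 0.30), were among those not called. In the interaction 11 of the 12 were called lower, all but *Lbr*, against 2.69% of all genes. With BSO 3 of these 12 were called lower, against 0.305% of all genes: *Hsd17b7* (−0.72, edgeR adjusted p = 0.018), *Acat2* (−0.64, 0.010) and *Lss* (−0.54, 0.033). On the no-Trp diet 4 of the 12 were called higher in the knockouts, against 1.40% of all genes.

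Of 11 enzymes that draw isoprenoids away from sterols, 0 were called lower and 2 higher by edgeR in *Cse*-/- livers on the no-Cys diet, where 11.6% of all genes were called higher. An unadjusted p under 0.05 was reached by 3, for which no share of all genes was taken. Those called were *Fntb*, the β-subunit of protein farnesyltransferase (log2 fold change 1.03, edgeR adjusted p = 0.0026), and *Dhdds*, a subunit of the dolichol-making prenyltransferase (0.48, 0.0093). *Ggps1*, which makes geranylgeranyl diphosphate, had the lowest value of the list, −0.29.

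Of 8 genes of sterol sensing and uptake, 4 were lower in *Cse*-/- livers on the no-Cys diet, against 12.2% of all genes. *Stard4*, a cholesterol carrier (log2 fold change −1.58, edgeR adjusted p = 0.00060), *Insig1*, which retains SREBP in the endoplasmic reticulum and is itself a target of it (−1.20, 0.0013), and *Srebf2*, the gene of SREBP2 (−0.57, 0.0079), were among them. *Insig2* was at 0.28 (edgeR adjusted p = 0.39). In the interaction 4 of the 8 were called lower as well, against 2.69% of all genes, with *Insig1* at −2.05. Of 7 genes of LXR, the receptor of sterol excess, and its targets, 0 were lower and 2 higher, where 11.6% of all genes were called higher. These were *Abcg8* (0.69, 0.0015) and *Abcg5* (0.39, 0.029), which together form the exporter of sterols into bile. *Abcg8* was also called higher in the knockouts on the no-Trp diet (0.62, edgeR adjusted p = 0.047), against 1.40% of all genes. In the interaction 0 of the 7 were called, against 4.36% of all genes called in either direction.

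**Figure D4:**
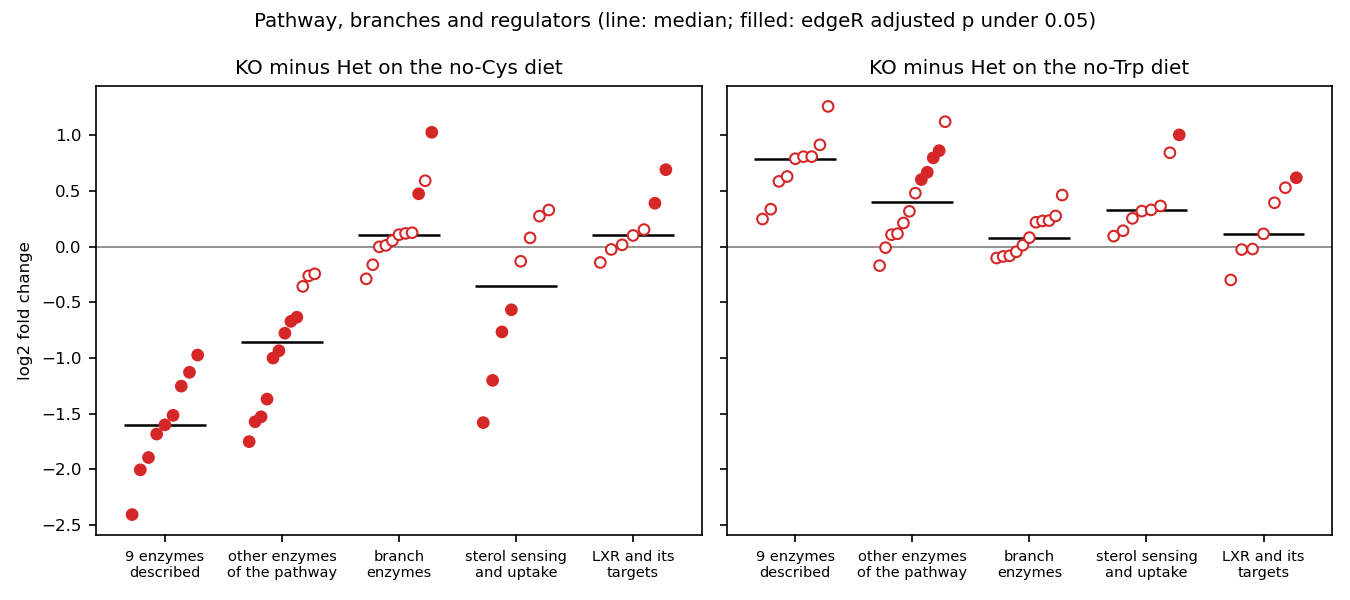
Log2 fold change of KO against Het (vertical axis) on the no-Cys diet (left panel) and the no-Trp diet (right panel) for each gene of 5 lists, with a line at the median of each list and filled points where the edgeR adjusted p was under 0.05. On the no-Cys diet the 9 enzymes described have a median of −1.60, the 12 other enzymes one of −0.86 and the branch enzymes one of 0.11, and on the no-Trp diet the 9 have a median of 0.79.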

How the data were processed

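Poly(A) RNA from each liver was sequenced with a library kit that does not mark strand. The authors aligned reads to GRCm38 with HISAT2 2.1.0, counted them on genes with HTSeq 0.11.0 and deposited raw counts without normalization, per the submitters' processing notes. The sources used here do not give the annotation release used for counting.

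Of 21 columns of counts 20 were used, and 1, whose condition the study's list of mice does not give, was not. Columns were assigned to groups through that list, so that mice carry no replicate number. Symbols, coordinates and exon lengths came from GENCODE M21 (GRCm38), which named 45229 of the 46078 genes, and promoters from RefSeq.

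filterByExpr removed genes with few reads (minimum count 10, total 15), counts were scaled by TMM factors, and edgeR 4.0.16 (R 4.3.3) fitted a quasi-likelihood model with 6 group means to all 20 libraries. Two-sided p-values were adjusted over 14759 genes by the Benjamini–Hochberg method. No p was adjusted over the enzymes alone. Shares of all genes were taken for edgeR calls and for groups that do not overlap. They were not taken for unadjusted p-values, for DESeq2 or for fits with a library left out. Depths of 11785740 to 57986121 counts gave 17 or more counts for each enzyme in each library. Pairs of libraries of a group differed by more than counting noise (chi-square per gene 9.60 to 64.2 over 25 pairs), so that p-values rest on the spread between livers.

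The alternatives were to test with DESeq2 1.42.0, to scale by upper-quartile or RLE factors, to drop the filter or require a mean CPM of 1, to fit the compared groups alone, to set the threshold at 0.01 and to leave out each library. Adding pseudogene counts and the comparison of *Cse*-/- no-Cys with control livers were chosen after the values were seen. Likeness was Pearson's r over 20 livers between a gene's log2 CPM (prior count 2) and the mean of the 9 enzymes, and the 10 highest genes outside the lists were taken. The enzymes, lists and rules were chosen with earlier results of these data known. All 9 enzymes are named, and of the other lists the highest, the lowest and, where informative, further members. Some genes of these lists are not reported here.

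On simulated counts made from the no-Cys groups, edgeR recovered 147 of 200 changed genes (59.0% of 2-fold and 88.0% of 4-fold changes) and made 7 false calls among 13226 genes. It recovered 154 of 200 (60.0% and 94.0%, 10 false calls among 14233 genes) for BSO against no-Trp knockouts and 146 of 200 (56.0% and 90.0%, 10 among 13856) for *Cse*+/- no-Cys against control livers. Each simulation was fitted on the compared groups alone, with each gene's spread taken from the full fit. The results come from the fit of all 20 libraries, so these rates describe a different fit. Plots were drawn with matplotlib 3.10.9 in Python 3.11.15.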

Additional observations from a re-analysis of the deposited data

Results flagged for a closer look

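The genotype difference depended on the diet for each of the 9 enzymes, by edgeR's test of the interaction. The genotype log2 fold change on the no-Cys diet minus that on the no-Trp diet was −2.31 for *Hmgcs1*, −2.06 for *Mvd*, −3.27 for *Idi1* and −2.48 for *Fdps*. It was −1.22 for *Fdft1*, −2.49 for *Sqle*, −2.23 for *Cyp51*, −3.32 for *Nsdhl* and −1.47 for *Sc5d*. In the 3 groups of 4 livers, no enzyme had a single liver far from the rest by Dixon's test, which was applied to 27 sets and by chance marks about 1 in 20. The groups of 3 and the control pair were not tested.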

How the results depend on the processing

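No paired analysis was possible because the columns carry no replicate numbers. The lower level of all 9 enzymes in *Cse*-/- livers on the no-Cys diet was called 9 times of 9 under each alternative run, and the interaction for 7 to 9. Other counts of called enzymes moved, and the cause was not tested. In *Cse*-/- livers on no-Cys against no-Trp, the 5 lower calls became 8 without the filter on low counts, 3 with only the groups compared, 2 at an adjusted p under 0.01 and 2 to 6 with single livers left out. With BSO the count of 0 became 1 by DESeq2, 5 without the filter and 0 to 4 with single livers left out. Between genotypes on the no-Trp diet, 3 were called higher without the filter. For *Cse*+/- no-Cys against control, the 1 higher call became 3 by DESeq2, without the filter and with only the groups compared, 0 at an adjusted p under 0.01 and 0 to 1 with single livers left out. For *Cse*+/- no-Trp against control, 1 was called lower without the filter. For *Cse*+/- no-Cys against no-Trp, the 6 higher calls became 3 at 0.01 and 3 to 7 with single livers left out. For *Cse*-/- no-Cys against *Cse*+/- control, the 4 became 1 at 0.01 and 1 to 3 with single livers left out.

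Signs turned for values near 0 that were not called. With single livers left out, BSO gave *Mvd* −0.63 to 0.19. *Cse*-/- no-Cys against BSO gave *Hmgcs1* −0.11 to 0.20, *Fdps* −0.54 to 0.24 and *Cyp51* −0.40 to 0.18, and *Hmgcs1* was at −0.00029 without the filter. *Cse*+/- no-Trp against control gave *Hmgcs1* −0.35 to 0.12, *Mvd* −0.25 to 0.10, *Fdft1* −0.17 to 0.16 and *Sc5d* −0.28 to 0.20, and *Fdft1* was at −0.0040 with pseudogene counts added. *Cse*-/- no-Cys against *Cse*+/- control gave *Hmgcs1* −0.29 to 0.16. The lowest counts were those of *Idi1* (from 17) and *Fdps* (from 23), and the control group held 2 livers.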
